A study of Mus musculus with 6 samples.

Results

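The respiratory chain is a set of protein complexes in the inner mitochondrial membrane that pass electrons from NADH and succinate to oxygen and pump protons while doing so. ATP synthase uses the resulting proton gradient to make ATP. Most subunits are encoded in the nucleus, and the remainder are encoded by mitochondrial DNA and translated on the mitochondrion's own ribosome, whose proteins are again nuclear. Kidney tubules depend heavily on this machinery, because the reabsorption of salt and solutes is paid for with mitochondrial ATP. The genes described here are the nuclear genes of both systems, taken by symbol: complex I (Nduf), complex II (Sdh), complex III (Uqcr), complex IV (Cox followed by a number), ATP synthase (Atp5) and the large and small subunits of the mitochondrial ribosome (Mrpl and Mrps).

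The annotation holds 184 protein-coding genes with these symbols. Many gene names in the deposited count files do not belong to the reads counted under them, so each row was given to a gene by the exon bases under its intervals on the mouse assembly GRCm38. By this reading 41 of the 184 genes could be counted, out of 9519 genes in all, and 143 could not. A gene with at least 10 counts in 3 or more libraries was a member, which left 40 genes. For 8 of these 40, the gene's own symbol was the deposited name of one of its rows. Just inside the limit were Atp5g1, with 5, 0 and 6 counts in healthy-labelled and 20, 31 and 15 in ARF-labelled libraries, and Cox4i2, with 30, 17 and 16 against 5, 4 and 3. Just outside was Cox7a1, the heart and muscle form of a complex IV subunit, with 2 or 3 counts in each library. Atp5g1 and Cox4i2 entered through 1 group only, so that a difference between the groups was built into their selection. Atp5c1 (12, 4 and 5 against 21, 26 and 17 counts) and Mrpl32 (25, 7 and 8 against 28, 30 and 38) reached the limit only with the ARF-labelled libraries. Their selection favoured a rise as well.

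The 6 libraries were made from kidney RNA of C57BL/6 mice, the common inbred laboratory strain, at postnatal day 21. The labels call 3 of them healthy and 3 acute renal failure, a rapid loss of kidney function, here called healthy-labelled and ARF-labelled. The sample titles call the groups control and treat, while the deposited files are named as wild type for the healthy-labelled and as mutant for the ARF-labelled libraries. No agent, operation or mutated gene is named, so whether the groups differ by a treatment, by genotype or by both is not known, and every difference below is between the labelled groups only. Whether each library is another animal is not stated, and p-values therefore measure only the spread between these libraries. Total counts ran from 2873370 to 5710010 in healthy-labelled and from 5455886 to 6191479 in ARF-labelled libraries. The 40 members held 0.551% to 0.653% of them in healthy-labelled and 0.743% to 0.881% in ARF-labelled libraries. Levels are given as TMM-normalised CPM, a count scaled to the size of its library and then by edgeR's factor between libraries. In this unit the members summed to 7028, 5752 and 6388 CPM in healthy-labelled and 6951, 8452 and 7157 CPM in ARF-labelled libraries. These sums overlapped between the groups, unlike the shares of the total counts. A log2 fold change is ARF-labelled minus healthy-labelled with its standard error (SE), and a gene was called at an adjusted p under 0.05 in edgeR's quasi-likelihood test over all genes read. In bulk RNA, fewer cells of a type and less RNA per cell cannot be told apart.

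The families were read unevenly. Read were 10 of 36 complex I subunits, 2 of 8 complex I assembly factors, 1 of 4 complex II subunits, 2 of 4 complex II assembly factors and 2 of 8 complex III subunits. For complex IV, 5 of 20 subunits were read, of which 4 were members, and 3 of 9 assembly factors. For ATP synthase 3 of 17 genes were read, for the large mitochondrial ribosomal subunit 8 of 49 and for the small 5 of 29. A member was read through a median of 317 exon bases (32 to 4323), a median of 19.6% of its exon length, and 10 members through fewer than 100 bases. Levels of different members are therefore not compared, and a gene is compared only with itself in the other libraries. The 37 rows of the mitochondrial chromosome held 0 counts in every library, so the subunits encoded by mitochondrial DNA could not be described.

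Most members differed little between the groups. Of the 40, 11 were called higher in ARF-labelled libraries, 2 were called lower, and 27 were not called. Over all 5246 genes tested, 25.1% were called higher and 24.9% lower, so the 27.5% of members called higher is close to the background, and the 2 of 40 called lower are fewer than the background share. The median log2 fold change was 0.24 over the members and 0.01 over all genes tested. Over the 30 members read through at least 100 exon bases it was 0.13, and -0.003 over all such genes. With at least 50 counts in every library of a group it was 0.18 over 34 members and 0.004 over all genes. The median size of the change, regardless of direction, was 0.32 over the 40 members and 0.53 over all genes tested. Of the 40 members 4 differed 2-fold or more, against 26.5% of all genes. For 20 members the groups did not overlap (background 60.2%). The 3 ARF-labelled libraries all lay above the 3 healthy-labelled ones for 17 members (background 31.1%) and all below for 3 (background 29.1%). Without Atp5g1 and Cox4i2, 10 of 38 were called higher and 1 lower. Atp5c1 and Mrpl32 are still among these 38. Of the 36 members with 10 counts in all 6 libraries, 10 were called higher and 1 lower, with a median log2 fold change of 0.22. All ARF-labelled libraries lay above the healthy-labelled ones for 14 of these 36 and below for 2. Scaled by total count alone, which raised the median of all genes by 0.17, 19 members were called higher and 1 lower. Over all 5246 genes that scaling gave 1749 higher and 1013 lower, against 1319 and 1305 in the main fit. The number of members called higher fell to 6 when healthy-labelled replicate 2 was left out, to 7 for healthy-labelled replicate 3 and to 6 for ARF-labelled replicate 2. Over all genes it fell to 1163, 985 and 1120 in the same order. The number of members called lower was 1 when either ARF-labelled replicate 1 or ARF-labelled replicate 3 was left out. Over all genes, 1139 and 1180 were called lower in these fits.

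**Figure D1:**
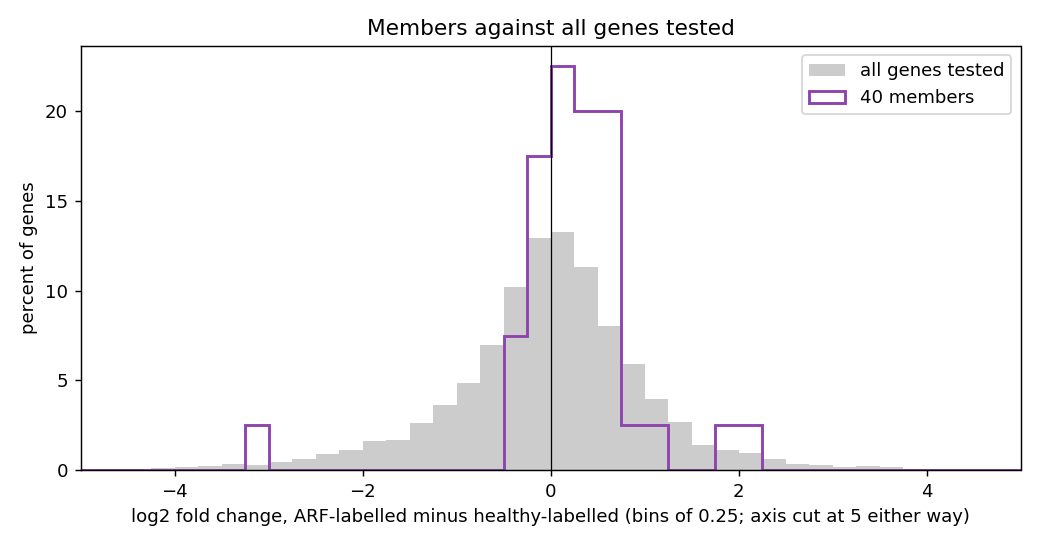
Percent of genes (vertical axis) in bins of log2 fold change, ARF-labelled minus healthy-labelled (horizontal axis, drawn from -5 to 5), for all 5246 genes tested (grey) and the 40 members (purple outline). The members crowd around a median of 0.24, with Cox4i2 far to the left at -3.01 and Atp5g1 and Atp5s to the right.

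Complex I, which takes electrons from NADH, held 4 members called higher and 6 not called out of 10 (background 25.1% higher and 24.9% lower), with a median log2 fold change of 0.40. Ndufs7 is a core subunit that carries the last iron-sulphur cluster before ubiquinone (chromosome 10, 80249121 to 80256794, GRCm38). It stood at 44.7, 38.9 and 37.3 CPM in healthy-labelled libraries and at 85.5, 109 and 85.4 CPM in ARF-labelled ones. All 3 ARF-labelled values were far above the healthy-labelled range (log2 fold change 1.21, SE 0.15, adjusted p = 0.000276). The row, 4039 bases long, covers 99 of the gene's 983 exon bases, 48 of them coding, and overlapped no exon of another annotated gene.

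Ndufa5, an accessory subunit of the peripheral arm, was read through 871 of its 875 exon bases (chromosome 6, 24518666 to 24528013). It had 256, 245 and 218 CPM in healthy-labelled and 315, 433 and 339 CPM in ARF-labelled libraries. The groups did not overlap, and ARF-labelled replicate 2 was highest (log2 fold change 0.60, SE 0.14, adjusted p = 0.00896). Ndufv2, a core subunit with an iron-sulphur cluster beside the NADH site, stood at 145 ± 16.4 CPM (SD, n = 3) in healthy-labelled and 192 ± 28.6 CPM in ARF-labelled libraries (a log2 fold change of 0.40, SE 0.14, adjusted p = 0.0390). Ndufs3, another core subunit, stood at 34.3 ± 6.93 and 49.4 ± 6.69 CPM (log2 fold change 0.51, SE 0.17, adjusted p = 0.0383). In both the groups did not overlap, but healthy-labelled replicate 1 came close to the lowest ARF-labelled library. Ndufv2 and Ndufs3 were no longer called when healthy-labelled replicate 2, healthy-labelled replicate 3 or ARF-labelled replicate 2 was left out, and Ndufs3 was not called without ARF-labelled replicate 1 either. Their adjusted p in these fits was 0.124 to 0.153 for Ndufv2 and 0.0694 to 0.122 for Ndufs3.

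Ndufv1, the subunit that binds NADH, had a log2 fold change of -0.11 (SE 0.13, adjusted p = 0.516). The core subunits described here thus ranged from -0.11 to 1.21, and the difference between them was not tested. The accessory subunits Ndufa10, Ndufa9, Ndufb4 and Ndufs4 were not called, at 0.12 to 0.59. The row of Ndufs4, whose loss causes Leigh syndrome, also covers 302 bases of Gm47558, another annotated transcript, so its value is uncertain.

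Of the 2 complex I assembly factors, 1 was called, and it was lower (background 24.9%). Ndufaf6, a protein needed early in the building of the complex, was read over all of its 1082 exon bases (chromosome 4, 11051045 to 11076205). It had 45.4, 49.4 and 44.9 CPM in healthy-labelled and 31.0, 39.2 and 30.2 CPM in ARF-labelled libraries, without overlap (log2 fold change -0.48, SE 0.14, adjusted p = 0.0214). The adjusted p was 0.0770 and 0.0826 when ARF-labelled replicates 1 and 3 were left out in turn, and 0.0928 when scaled by total count. Ndufaf4, also read in full, was not called (log2 fold change 0.11, SE 0.13, adjusted p = 0.526).

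Complexes II and III, with their assembly factors, had 0 of 5 members called by edgeR (background 25.1% higher and 24.9% lower), 1 higher at an unadjusted p under 0.05 (Sdhaf3) and 0 with DESeq2. Sdhb, the iron-sulphur subunit of succinate dehydrogenase, had 505, 391 and 506 CPM in healthy-labelled and 392, 477 and 398 CPM in ARF-labelled libraries. The ranges overlapped almost completely (log2 fold change -0.15, SE 0.14, adjusted p = 0.424). Among the complex II assembly factors, Sdhaf2, which attaches the flavin to the catalytic subunit, had a log2 fold change of 0.11 (SE 0.14). Sdhaf3 had one of 0.41 (SE 0.15, adjusted p = 0.0502), just short of a call. Uqcrc1, a core protein of complex III, had 952, 754 and 872 CPM in healthy-labelled and 856, 950.2 and 775 CPM in ARF-labelled libraries. Its log2 fold change was 0.00 (SE 0.13), and the spread within each group was wider than the distance between them. Uqcrc2, the other core protein, had a log2 fold change of 0.19 (SE 0.15, adjusted p = 0.311).

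Complex IV, cytochrome c oxidase, held the only member that differed strongly downward. Cox4i2 encodes the alternative form of subunit IV, known from lung and from cells at low oxygen (chromosome 2, 152754173 to 152765037). It stood at 5.66, 6.18 and 4.69 CPM in healthy-labelled and at 0.857, 0.694 and 0.451 CPM in ARF-labelled libraries. All ARF-labelled libraries were far below the others (log2 fold change -3.01, SE 0.38, adjusted p = 0.000308), on 63 counts against 12. Cox4i2 became a member through the healthy-labelled libraries only, so a difference was built into its selection and its p-value is not counted as support. The usual form, Cox4i1, could not be read, so the balance of the forms was not analysed here. Pdgfrb, a receptor of pericytes and fibroblasts, was lower as well (log2 fold change -0.91, SE 0.29, with 1 healthy-labelled library inside the ARF-labelled range), as were 3 of 4 endothelial markers tested, among them Pecam1 (-1.29, SE 0.16). Of all genes tested, 24.9% were called lower and 25.1% higher. The summed level of the endothelial markers was 187 to 347 CPM in healthy-labelled and 124 to 137 CPM in ARF-labelled libraries. The 6 fibroblast and smooth muscle markers (2 higher, 1 lower) summed to 242 to 1697 and 269 to 478 CPM. Their part in the level of Cox4i2 was not tested.

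Cox6b1, a subunit on the side of the intermembrane space, had 540.1, 421 and 413 CPM in healthy-labelled and 626, 749.6 and 693 CPM in ARF-labelled libraries. The groups were apart (log2 fold change 0.59, SE 0.14, adjusted p = 0.00867). Ndufa4, first described with complex I and now counted with complex IV, was read over 621 of 624 exon bases and rested on the largest number of counts of any member, 11815 and 23686. Its libraries did not overlap, at 1149.9, 833 and 1005 against 1172, 1447 and 1279.6 CPM, but healthy-labelled replicate 1 and ARF-labelled replicate 1 were nearly equal (log2 fold change 0.38, SE 0.15, adjusted p = 0.0619). Ndufa4 was called higher by DESeq2 (adjusted p = 0.0387), by edgeR with no filter on low counts (0.0471), with total count scaling (0.0102) and without healthy-labelled replicate 1 (0.0278), and in the other alternatives its adjusted p was 0.0574 to 0.201. Cox5a was not called (0.29, SE 0.14). Among the assembly factors, the copper chaperone Cox17 had 173, 136 and 133 CPM against 210.0, 229 and 235 CPM (log2 fold change 0.60, SE 0.13, adjusted p = 0.00472). Its row also covers 104 exon bases of Gm21987 and 96 of Popdc2. Cox19, which also serves copper delivery, stood at 22.7 ± 0.268 and 30.0 ± 2.02 CPM (log2 fold change 0.40, SE 0.13, adjusted p = 0.0272). Without any single library other than ARF-labelled replicate 1, Cox19 was not called (adjusted p 0.0514 to 0.0959, edgeR). Cox10, an enzyme of haem a synthesis, was at -0.03 (SE 0.12).

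ATP synthase was represented by 3 genes, and the gene of the catalytic beta subunit, Atp5b, could not be read. Atp5s showed the largest rise among the members (chromosome 12, 69724950 to 69744660). It was first described as a coupling factor of the enzyme and is listed by RefSeq as Dmac2l. Its level was 23.0, 24.7 and 21.7 CPM in healthy-labelled and 105, 107 and 86.7 CPM in ARF-labelled libraries. The groups were 4.31-fold apart with little spread inside either (log2 fold change 2.11, SE 0.14, adjusted p = 1.57e-05). The row, 3466 bases long, covers 111 of its exon bases, 107 of them coding, and met no other annotated exon. Atp5g1, a gene of the membrane ring subunit c, rested on 11 counts against 66 (log2 fold change 1.92, SE 0.66, adjusted p = 0.0392). This call was lost in 4 of the 6 fits that left out 1 library (adjusted p 0.0661 to 0.123). Atp5g1 became a member through the ARF-labelled libraries only, so a difference was built into its selection as well. Atp5c1, the gene of the rotating gamma shaft, had 21 counts against 64 through 47 bases and was not called (0.97, SE 0.39, adjusted p = 0.0653). It reached the limit of membership only with the ARF-labelled libraries, so its selection favoured a rise.

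**Figure D2:**
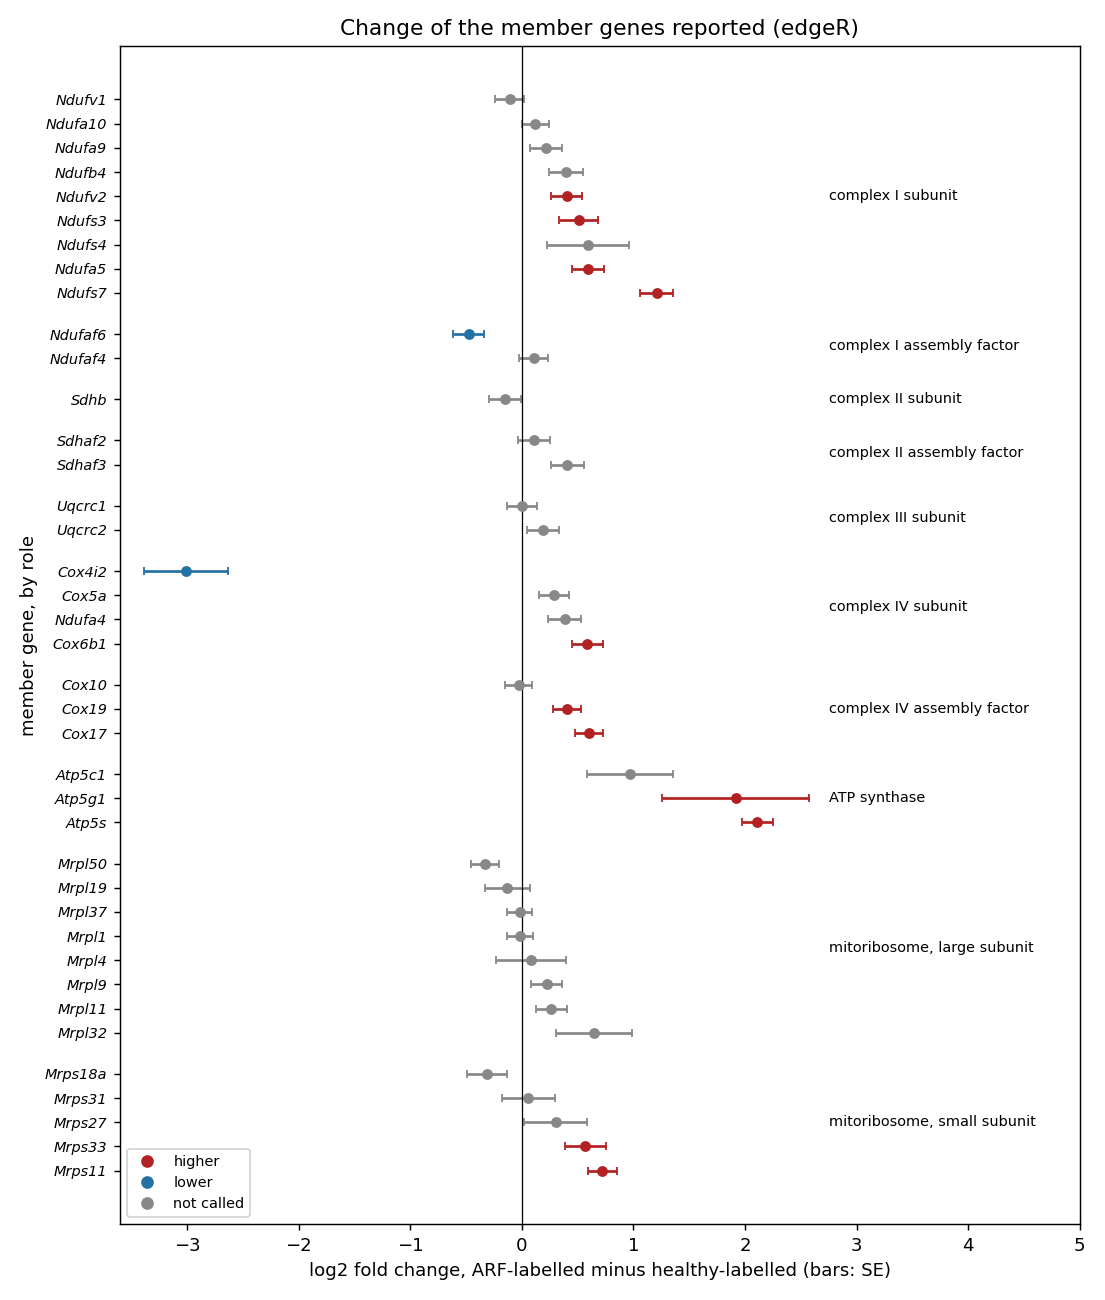
Log2 fold change, ARF-labelled minus healthy-labelled, of the members reported (points, with bars for the SE) by role, from edgeR; red points were called higher, blue lower and grey not called. Subunits of complexes II and III sit near 0, Cox4i2 stands alone at -3.01, and Atp5s and Atp5g1 lie highest.

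Of the 13 mitochondrial ribosome genes, 2 were higher and 0 lower by edgeR, against 25.1% and 24.9% of all genes. The 8 large subunit genes included 0 called in either direction (median log2 fold change 0.03), while at an unadjusted p under 0.05, and with DESeq2, 1 of them was lower, Mrpl50. Mrpl37 and Mrpl1 were at -0.02 each, with SE of 0.11 and 0.12, and their groups overlapped within a few CPM. The row of Mrpl37 covers 332 of its exon bases and 126 of Cyb5rl, another protein-coding gene. Mrpl37 ran from 55.2 to 60.7 CPM in healthy-labelled and from 55.2 to 61.6 CPM in ARF-labelled libraries. Mrpl50, read over all of its 2114 exon bases, had 279, 240.0 and 262 CPM against 186, 237 and 199 CPM. All 3 ARF-labelled libraries were below the healthy-labelled ones, though ARF-labelled replicate 2 by a small margin (log2 fold change -0.33, SE 0.13, adjusted p = 0.0554). Mrpl9 was not called (0.22, SE 0.14), and the remaining large subunit genes ran from -0.13 to 0.65. The highest of them, Mrpl32, rested on 40 counts against 96. It reached the limit of membership only with the ARF-labelled libraries, so its selection favoured a rise.

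In the small subunit, Mrps11, a protein of the subunit's body shared with bacterial ribosomes, stood at 49.95, 47.3 and 48.7 CPM in healthy-labelled and at 74.4, 91.1 and 75.7 CPM in ARF-labelled libraries (chromosome 7, 78783119 to 78792989). The healthy-labelled libraries were nearly equal and all ARF-labelled ones higher (log2 fold change 0.72, SE 0.13, adjusted p = 0.00178). Its row shares 16 bases with Mrpl46. Mrps33, a protein particular to mitochondrial ribosomes, had 75.2, 50.5 and 61.3 CPM against 78.7, 111 and 89.6 CPM. The groups nearly touched (log2 fold change 0.57, SE 0.18, adjusted p = 0.0290), and it lost its call when healthy-labelled replicate 2, healthy-labelled replicate 3 or ARF-labelled replicate 2 was left out (adjusted p 0.085 to 0.097). Mrps18a, read through 32 bases only, had a log2 fold change of -0.31 (SE 0.18, adjusted p = 0.180). Mrps27 and Mrps31 were not called (0.30 and 0.06).

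**Figure D3:**
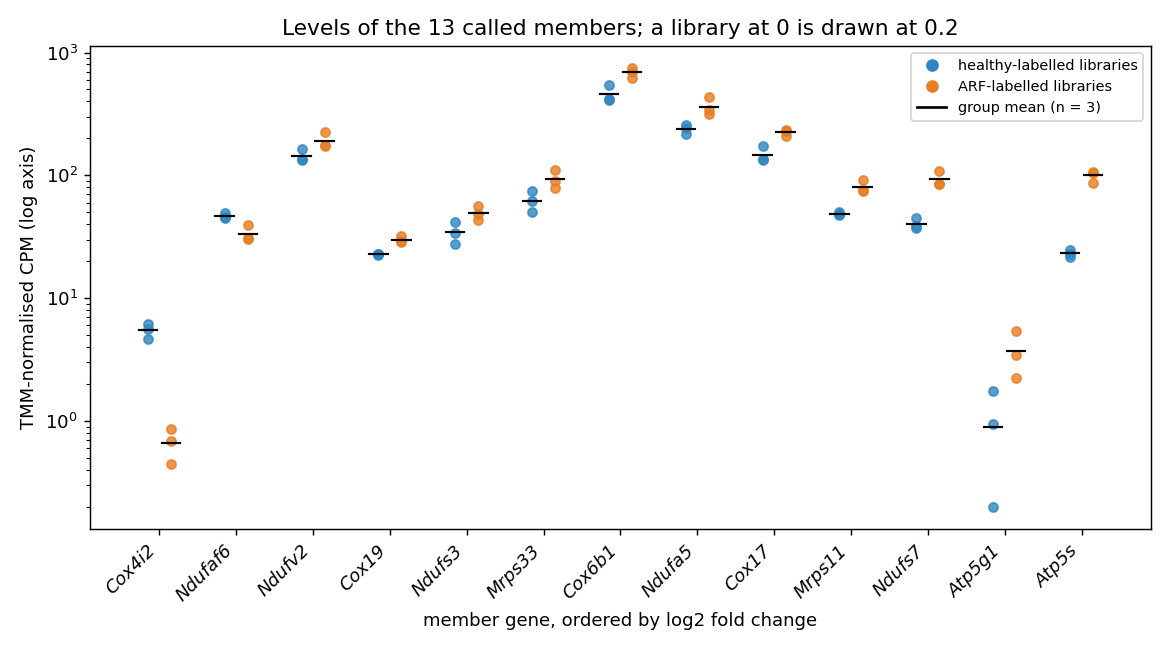
TMM-normalised CPM on a log axis of the 13 called members in each library, blue for healthy-labelled and orange for ARF-labelled, with a black line at the mean of 3; the 0 of Atp5g1 in healthy-labelled replicate 2 is drawn at 0.2. The groups are well apart for Cox4i2, Ndufs7 and Atp5s and lie close together for Ndufv2, Cox19, Ndufs3 and Mrps33.

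The members moved together between libraries of the same group. ARF-labelled replicate 2 had the highest level of its group for 34 of 40 members (85.0%), against 36.6% of all genes tested. Healthy-labelled replicate 2 had the lowest level of its group for 23 (57.5%), against 34.8% of all genes. Relative to each gene's mean over the 6 libraries, the median of the 38 members without Atp5g1 and Cox4i2 was 0.01, -0.29 and -0.11 on the log2 scale in healthy-labelled replicates 1 to 3. It was -0.02, 0.31 and 0.05 in ARF-labelled ones. Healthy-labelled replicate 1 thus lay between ARF-labelled replicates 1 and 3, and the libraries farthest apart were the second of each group. The median log2 fold change of the members was 0.12 when healthy-labelled replicate 2 was left out, 0.13 when ARF-labelled replicate 2 was, and 0.26 to 0.32 without any other library.

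**Figure D4:**
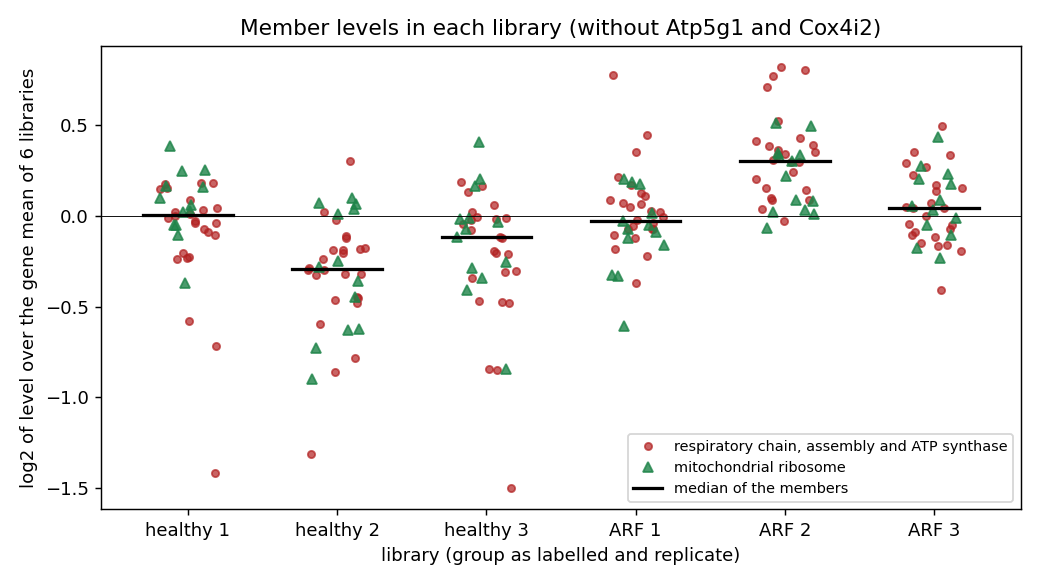
Level of each of 38 members in each library over the gene's mean of 6 libraries (log2, vertical axis), with circles for respiratory chain, assembly and ATP synthase genes, triangles for the mitochondrial ribosome and a black line at the median. Both kinds of gene are low in healthy-labelled replicate 2 (median -0.29) and high in ARF-labelled replicate 2 (median 0.31), and the remaining 4 libraries lie within -0.11 to 0.05.

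Markers of many cell types differed between the groups. The background over all genes tested was 25.1% called higher and 24.9% called lower. Of 9 markers tested of the proximal tubule, 7 were lower. They summed to 17175 to 26166 CPM in healthy-labelled and 6806 to 7347 CPM in ARF-labelled libraries. All 7 intercalated cell markers tested were higher, with sums of 1176 to 1446 and 4455 to 5608 CPM. All 4 principal cell markers tested were higher too, and of 5 markers of the loop of Henle and distal convoluted tubule 3 were higher and 2 lower. Blood and immune markers were lower: 2 of 2 of neutrophils, with sums of 50.1 to 165 CPM in healthy-labelled and 2.95 to 6.46 CPM in ARF-labelled libraries, 4 of 5 of macrophages (43.0 to 84.4 and 21.4 to 27.3 CPM) and 2 of 2 of erythroid cells (175 to 824 and 26.9 to 75.7 CPM). Of 2 white fat markers 1 was lower, Lep (log2 fold change -3.55, SE 0.94). It had 18.9, 277 and 51.6 CPM in healthy-labelled and 4.11, 15.5 and 9.62 CPM in ARF-labelled libraries. Healthy-labelled replicate 2 was thus far above every other library. Adrenal cortex markers varied by library rather than by group: Cyp21a1, a steroid hydroxylase of that gland, had 410.2, 1109 and 3.23 CPM in healthy-labelled and 74.2, 0.868 and 1646 CPM in ARF-labelled libraries. It was highest in healthy-labelled replicate 2 and ARF-labelled replicate 3 and lowest in healthy-labelled replicate 3 and ARF-labelled replicate 2. Brown fat, skeletal muscle and heart markers that could be read (1, 2 and 1 genes) did not reach the filter on low counts. The part of these cells in the members' levels was not tested.

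Other genes of the same machinery were read from lists. Of 8 regulators of mitochondrial gene expression tested, 3 were lower and 0 higher by edgeR (background 24.9% and 25.1%), with the same numbers at an unadjusted p under 0.05 and with DESeq2. Nrf1, a transcription factor of respiratory chain promoters, stood at 189 ± 10.7 CPM in healthy-labelled and 133 ± 3.83 CPM in ARF-labelled libraries (a log2 fold change of -0.51, SE 0.10, adjusted p = 0.00273). Pprc1, a coactivator related to PGC-1, fell further, from 151 ± 18.9 to 38.4 ± 3.51 CPM (log2 fold change -1.97, SE 0.13). Ppard, a nuclear receptor of fatty acid use, was at -0.92 (SE 0.16). Tfam was read but lay under the filter on low counts, and Ppargc1a, Ppargc1b, Gabpa, Esrra and Esrrg could not be read by position. Of 8 genes of protein import and mitochondrial chaperones, 4 were lower and 1 higher, against the same background. Hspe1, the small chaperonin of the matrix, led with 699.7, 1013 and 841 CPM against 211, 251 and 294 CPM (log2 fold change -1.76, SE 0.18).

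Carbon entry into the chain was mixed. The counts below stand against a background of 25.1% called higher and 24.9% called lower over all genes tested. Of 12 citric acid cycle and pyruvate dehydrogenase genes, Idh3a was higher (0.36, SE 0.11), Pdk4 and Pdp1, the kinase and phosphatase that set the activity of pyruvate dehydrogenase, were lower (-1.10, SE 0.22, and -1.07, SE 0.12), and 9 were not called. Cs, citrate synthase, often used as a measure of mitochondrial content, was at -0.22 (SE 0.12, adjusted p = 0.143). Of 4 fatty acid oxidation genes, Eci1 (1.05, SE 0.12) and Slc25a20 (0.53, SE 0.17) were higher and Acadl was lower (-0.68, SE 0.14). Mitochondrial translation factors and tRNA synthetases had 1 of 7 higher, Cars2. Ribosome assembly genes had 0 of 7 called by edgeR and by DESeq2, and 1 higher at an unadjusted p under 0.05. The other assembly factors of complexes I, III and IV had 0 of 4 called by any of these measures. Dhodh, which passes electrons to ubiquinone, was higher at 1.04 (SE 0.17) as 1 of 4 in its list, and so was Tmem242 (0.71, SE 0.16), the only gene tested of the ATP synthase assembly list.

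Promoters of these genes are known for binding sites of NRF1, of the ETS factor GABPA and of YY1. RefSeq promoter windows (GRCm38.p6, 250 bases before to 50 after the start) were found for 33 of the 40 members. Each gene's first listed window was searched on both strands. The palindromic NRF1 letters, spelled out by the capitals in Mrpl9 below, occurred in 4 of 33 members (12.1%) and in 0.977% of 27025 windows of the same length. The GABPA letters CCGGAAG occurred in 9 (27.3%) and in 9.12% of all windows, and the YY1 letters AAGATGGC in 9 (27.3%) and in 2.88%. The letters TCAAGGTCA, bound by estrogen-related receptors, occurred in 0 of 33 and in 0.407% of all. Of the 10 members called higher that have a window, 0 held the NRF1 letters, 3 the GABPA letters and 2 the YY1 letters. Of the 23 not called the numbers were 4, 6 and 7. Of these promoters, 6 are shown as the 100 bases before the outermost start in RefSeq or GENCODE, 5′ to 3′ on the gene's strand, with matches to the searched letters in capitals. Atp5s and Mrps11 were called higher, and the other 4 genes, each with a match, were not called. The positions are chr12:69724845-69724944 (plus strand) for Atp5s, chr7:78783019-78783118 (plus) for Mrps11, chr11:64079473-64079572 (minus) for Cox10, chr17:46110886-46110985 (plus) for Mrps18a, chr13:99344686-99344785 (plus) for Mrps27 and chr3:94443218-94443317 (plus) for Mrpl9.
Atp5s: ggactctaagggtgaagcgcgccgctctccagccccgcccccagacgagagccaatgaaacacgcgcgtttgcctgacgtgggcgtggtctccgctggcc
Mrps11: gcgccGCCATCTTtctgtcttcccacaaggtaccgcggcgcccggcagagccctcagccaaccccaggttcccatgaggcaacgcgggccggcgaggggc
Cox10: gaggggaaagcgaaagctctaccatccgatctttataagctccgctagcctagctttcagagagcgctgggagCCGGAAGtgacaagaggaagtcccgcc
Mrps18a: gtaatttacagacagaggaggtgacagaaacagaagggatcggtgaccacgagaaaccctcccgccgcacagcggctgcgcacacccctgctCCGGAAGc
Mrps27: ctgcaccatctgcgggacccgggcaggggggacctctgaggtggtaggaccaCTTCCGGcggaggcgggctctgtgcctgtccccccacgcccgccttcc
Mrpl9: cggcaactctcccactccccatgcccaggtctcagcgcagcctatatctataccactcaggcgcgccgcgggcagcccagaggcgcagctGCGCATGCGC
The capitals mark the YY1 letters on the opposite strand in Mrps11, the GABPA letters in Cox10, Mrps18a and, on the opposite strand, Mrps27, and the NRF1 letters in Mrpl9. Atp5s, the member with the largest rise, held none of the searched letters in its window, and a match or its absence says nothing of whether a factor binds there.

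Transcript length did not follow the change. Across the 40 members the Spearman correlation of log2 fold change with the length of the longest basic transcript was 0.00, with its GC content -0.26 and with the mean level -0.12. Across 5020 protein-coding genes tested the values were 0.03, 0.02 and -0.07. These are correlations across genes of the same 6 libraries, which are not independent replicates.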

How the data were processed

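Kidney RNA was extracted with Trizol and made into TruSeq RNA libraries, per the labels' protocols. The authors deposited fragment counts per annotation row, which per the file headers come from featureCounts 2.0.1, with exons added up by gene name, pairs aligned at both ends, no chimeric pairs and no use of strand. Bowtie 0.12.2 and mm9 stand in the submitters' processing notes, while the series' design text names other aligners. The aligner and build of the counted alignments are not given in the sources used here. Only the files of single libraries were used.

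Of 53546 rows, 12401 were given to a GRCm38 gene (GENCODE M21 basic, protein-coding and long non-coding, no read-through transcripts) that held 0.9 or more of the exon bases it overlaps, and 25 or more bases, with bedtools 2.31.1 and pandas 2.3.3 in Python 3.11.15. Rows of a gene were added, giving 9519 genes and 63.0% of the counts. A row can include reads from an opposite-strand gene, from introns or from processed copies, and reads that map to several places may be missing. Groups follow the diagnosis label. All 40 members passed filterByExpr. The fit was edgeR 4.0.16 (R 4.3.3) with TMM, library sizes summed over every row, and no covariate beside group, two-sided, Benjamini-Hochberg adjusted over 5246 genes; SE is the log2 fold change over the square root of F. The test was checked on simulated counts for this comparison (5161 genes), where it called 79.4% of genes changed 2-fold, 100% of those changed 4-fold and 0.161% of unchanged genes. The simulation changed few genes (97 and 96, beside 4968 unchanged), equally in both directions and with a single assumed spread. In the real data 50% of genes were called, so these rates need not apply to them. Libraries of a group differed beyond counting noise in every pair (chi-square per degree of freedom 13.5 or more).

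Alternatives were DESeq2 1.42.0, its size factors in edgeR, total count scaling, other filters, other row assignment, a replicate block and leaving out each library. The members and lists were chosen with earlier results of these data known. The naming rule took the 8 largest called changes each way, the highest level per kb of exon bases read and the lowest p in each role, complex II and isoform family members, and listed regulators; other members and list genes are named after their values were seen. The values of 1 member are not reported here, though it is counted among the 40.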

Additional observations from a re-analysis of the deposited data

How the results depend on the processing

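The members called higher numbered 11 by edgeR and 10 to 14 with DESeq2, its size factors in edgeR, no filter on low counts, a filter of 50 counts in every library of a group, or rows touching exons of 1 gene only. They numbered 19 with total count scaling, where 1 was lower, and 7 of the 30 members read through at least 100 exon bases. Over all genes, those called higher numbered 1319 of 5246 by edgeR and 1749 of 5246 with total count scaling, where 1013 were lower. They numbered 1154 of 4676 with at least 100 exon bases, 1235 of 5246 with DESeq2 and 1287 of 5246 with its size factors in edgeR. With no filter on low counts they were 1394 of 7659, where 14 of 40 members were higher. The filter of 50 counts gave 1119 of 3980, against 10 of 34 members. Rows touching exons of 1 gene only gave 1256 of 4974. Leaving out 1 library gave 6 to 13 members higher and 1 to 3 lower. Over all genes it gave 985 to 1183 higher and 1120 to 1313 lower, of 5347 to 5405 tested. Of the 13 called members, 7 passed in every alternative in which they were tested: Atp5s, Cox17, Cox4i2, Cox6b1, Mrps11, Ndufa5 and Ndufs7. Cox4i2 was not testable with the filter of 50 counts, nor Ndufs7 with at least 100 bases. For Cox4i2 a difference was built into its selection, so its passing adds no support. The log2 fold change of Sdhb was 0.027 with total count scaling, opposite in sign to its -0.15, and that of Sdhaf2 was 0.11 with all libraries and ran from -0.024 (without ARF-labelled replicate 2) to 0.20 when 1 library was left out. Neither was called, and the cause was not tested. Whether equal replicate numbers mark a pair is not known. Same-numbered libraries correlated at -0.07, -0.22 and -0.29 in their deviations from the group means, and differently numbered ones at -0.06 to 0.25. With 3 libraries in a group such correlations cannot decide it. With the number as a replicate block, 6 members were called higher and 2 lower, with 8 of the 13 calls shared. Over all genes, 1135 of 5246 were called higher and 1153 lower in that fit. Atp5g1, Cox4i2 and Atp5c1 rest on fewer than 100 counts over all libraries, which limits their precision.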
